A study of Mus musculus with 4 samples.

Results

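The early response of the mouse gastric corpus to high-dose tamoxifen was read from 2 arrays, 1 taken 12 hours after tamoxifen and 1 from mice given the vehicle and taken at 2.5 days. Each gene was read from a probe set annotated to that gene alone, the one with the highest mean over the 4 arrays of the series. Of 18193 genes measured, 12253 were expressed, meaning that the brighter of both arrays was at or above its own array's median over all probe sets. Genes of pancreatic and of squamous tissue, which differed most between these arrays, were set aside: 60 pancreatic and 143 squamous genes were measured, and 130 of them were expressed. The remaining 12123 expressed genes are described here by programme: acid secretion, mitochondrial metabolism, stress, inflammation and the cell cycle.

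The tissue was corpus epithelium of wild-type mice aged 6 weeks, and the strains named are C57BL/6, BALB/c and FVB/N. The labels tie no strain to an array, so strain and treatment cannot be told apart. Tamoxifen was given into the peritoneum at 5 mg per 20 g of body weight, on 1 or 3 days, a schedule that is given for no single array. The carrier, 10% ethanol in 90% sunflower seed oil, was the treatment of the vehicle mice. RNA of 3 mice was pooled and amplified for each array, so the spread between mice is unknown and no p-value is given. Treatment and time of collection differ together between the 2 arrays. The arrays at 2.5 and 4.5 days after tamoxifen are given beside them, and all 3 tamoxifen arrays are set against the same vehicle array.

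Parietal cells secrete acid through a proton pump that exchanges protons for potassium, with potassium and chloride channels on the same membrane and a bicarbonate exchanger on the opposite side, and they are rich in mitochondria. Tamoxifen is a selective estrogen receptor modulator which, at high dose in mice, is known for parietal cell loss and for metaplasia of the corpus glands. Cells under oxidative load switch on NRF2, which drives glutathione synthesis, and cells short of amino acids or with misfolded protein switch on ATF4 through the integrated stress response.

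Levels are log2 RMA values. Differences are 12 hours minus vehicle in these log2 units, where 1 stands for 2-fold. The medians of all arrays fell between 5.30 and 5.34. Each array had 10 to 15 genes above 14, near the top of the scale. The 27 poly-A control probe sets differed between the 2 arrays with an SD of 0.19 and by at most 0.64, and 18 hybridisation controls with an SD of 0.10. These controls carry no variation between mice. The defining markers of the corpus were bright on both arrays, with Atp4a at 13.38 in vehicle and 12.71 at 12 hours, Pgc at 14.28 and 14.12, Muc5ac at 13.78 and 13.77, and Tff2 at 14.10 and 14.02. The smooth muscle gene Actg2, at 12.42 and 11.61, was bright as well, so the pools held more than epithelium.

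Among the 12123 genes, 95 were at least 2-fold higher at 12 hours (0.784%) and 184 at least 2-fold lower (1.52%). Their median difference was -0.04, with a robust SD of 0.26 and 5th and 95th percentiles of -0.59 and 0.47. The genes nearest the threshold were Coro1a, inside at 1.01, and Glipr1, outside at 0.998, and on the lower side Col4a4 at -1.004 and Enpp4 at -0.999. Of the higher genes, 30 had several probe sets above the array median. In 29 of these all pointed the same way, but in only 13 were all past 2-fold. Of the lower genes, 61 had several, and in 54 all pointed the same way, but in only 26 were all past 2-fold. At the 75th percentile in place of the median, 55 genes were higher and 132 lower.

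The pancreatic and squamous genes that were set aside lay on the same 2 arrays as everything below. Of 37 acinar genes, 17 reached the array median in vehicle and 32 did so at 12 hours, and their summed level on the linear scale was 77717 in vehicle and 154040 at 12 hours. It was 41958 at 2.5 days and 19827 at 4.5 days. The median level of these genes was 5.29 in vehicle, 11.21 at 12 hours, 5.48 at 2.5 days and 5.64 at 4.5 days. At 12 hours 27 of the 37 were at least 2-fold higher and none lower, against 0.698% of all genes measured higher. The largest difference was 9.32. Of 89 squamous genes, 62 reached the median in vehicle and 31 did so at 12 hours, with sums of 38439 and 22235, against 28232 and 30188 on the later arrays. Their part in the differences below was not tested.

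**Figure D1:**
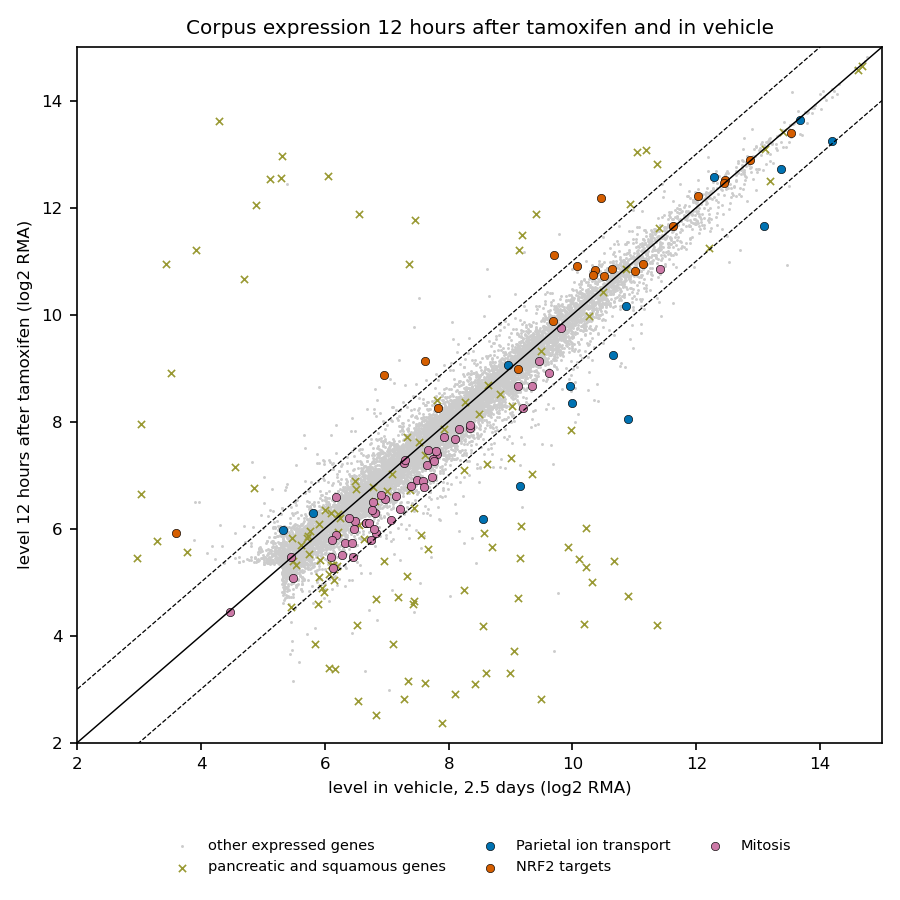
Level of each expressed gene in vehicle (horizontal) and 12 hours after tamoxifen (vertical), both as log2 RMA values of 1 pooled array; the solid line marks equal levels and the dashed lines 2-fold. The 15 parietal ion transport genes lie mostly below the line with 7 past 2-fold, 5 of 21 NRF2 targets lie past 2-fold above it, and 52 of 54 mitosis genes lie below it within 2-fold; the crosses are the pancreatic and squamous genes set aside.

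Genes of acid secretion were lower 12 hours after tamoxifen, among them several channels and exchangers that support the proton pump. Of 15 parietal ion transport genes, 7 were at least 2-fold lower and none was higher, with a median of -0.95. Over all genes measured, 1.42% were at least 2-fold lower and 0.698% higher, with a median of -0.02. The list median was -1.13 on the 2.5-day array and -1.06 on the 4.5-day array. In bulk RNA, fewer parietal cells and less RNA per parietal cell cannot be told apart.

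Kcne2, the small subunit of the potassium channel that feeds potassium to the pump, was at 10.90 in vehicle, 8.05 at 12 hours, 9.69 at 2.5 days and 9.76 at 4.5 days. The 12-hour level was the lowest of the 4 and 7.22-fold under vehicle, a difference of -2.85. Kcnq1, the pore-forming partner of Kcne2, was at 9.99, 8.36, 9.03 and 9.04 in the same order. It too was lowest at 12 hours, by -1.64. Both subunits of this channel thus had their lowest level of the series on the first array after tamoxifen.

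Slc26a7, a chloride and bicarbonate transporter of the basolateral membrane, was at 8.56 in vehicle, 6.18 at 12 hours, 5.19 at 2.5 days and 4.19 at 4.5 days. It was 2.38 under vehicle at 12 hours, and each later array was lower still. The water channel gene Aqp4 was at 9.15, 6.79, 6.10 and 8.09, a difference of -2.36 at 12 hours from the 1 of its 3 probe sets that was above the array median. Slc4a2, the exchanger that lets bicarbonate out to the blood side, was at 10.65, 9.25, 9.14 and 9.39. Its 3 tamoxifen levels lay close together, and the 12-hour difference was -1.40. Kcnj16, an inwardly rectifying potassium channel gene, was at 9.96, 8.67, 7.80 and 7.30, and differed by -1.29. Clic6, an intracellular chloride channel family gene, was at 13.09, 11.65, 11.96 and 12.16, a difference of -1.43.

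The proton pump stayed within 2-fold at this time. Atp4b, its beta subunit, was at 14.19 in vehicle, 13.24 at 12 hours, 12.45 at 2.5 days and 12.88 at 4.5 days. Atp4a, the catalytic alpha subunit, was at 13.38, 12.71, 12.04 and 12.28. Both lay between vehicle and the later arrays at 12 hours, at -0.95 and -0.66, and the vehicle level of Atp4b was near the top of the scale, where differences are compressed. Kcnj15 was at -0.71. Car2, the carbonic anhydrase gene that supplies protons, was at 13.68 in vehicle and 13.65 at 12 hours, a difference of -0.03. The remaining 4 members lay above vehicle, at 0.09 for the sodium and proton exchanger gene Slc9a2, 0.27 for the sodium, potassium and chloride cotransporter gene Slc12a2, 0.49 for the potassium channel gene Kcnj10 and 0.63 for Slc9a4.

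**Figure D2:**
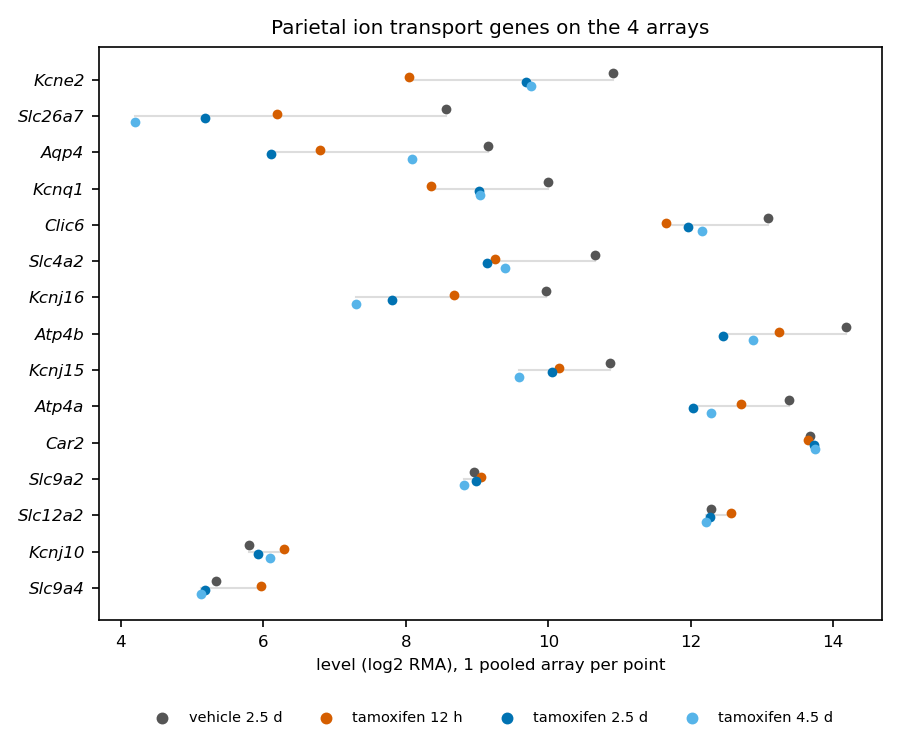
Level (log2 RMA) of the 15 parietal ion transport genes on the 4 arrays, 1 point per array, ordered by the 12-hour difference. Kcne2, Kcnq1 and Clic6 have their lowest point at 12 hours (orange), Atp4a and Atp4b lie between vehicle and the later arrays there, and Car2 is near 13.7 on all 4.

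The receptors through which acid secretion is controlled were lower in part. Of 6, 4 lay below vehicle, 2 of them by at least 2-fold, and none was 2-fold higher, with a median of -0.77. Over all genes measured, 53.1% lay below vehicle and 1.42% were at least 2-fold lower. Sstr2, the receptor through which somatostatin restrains secretion, was at 7.89 in vehicle, 6.60 at 12 hours, 6.29 at 2.5 days and 5.73 at 4.5 days. Cckbr, the gastrin receptor gene, was at 7.86, 6.61, 6.75 and 6.22 on its brighter probe set, and the dim one differed by 0.30. The histamine receptor gene Hrh2 was at 7.07, 6.10, 6.02 and 6.39, just within 2-fold at -0.97. So a restraining and a stimulating receptor were lower by like amounts, -1.29 and -1.24. The 2 above vehicle were Casr, at 4.98 in vehicle and 5.44 at 12 hours, and the muscarinic receptor gene Chrm3. Chrm3 was at 3.33 and 3.55, under the array median on both.

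Of 12 parietal regulators and structural genes, 4 were lower by at least 2-fold and none higher, against 1.42% and 0.698% of all genes. Their median was -0.17, and it became -0.43 with each gene read from the probe set of median difference. Esrrg, the nuclear receptor that drives mitochondrial and ion transport genes, was at 10.39 in vehicle, 8.71 at 12 hours, 10.03 at 2.5 days and 9.64 at 4.5 days. This was the lowest level of the 4, by -1.68. Vegfb was at -1.17, Mfsd4a at -1.15 and the brain-type creatine kinase gene Ckb at -1.06. The relatives and partners of Esrrg differed less: Esrra was at -0.22, Ppargc1b at -0.55 and Ppargc1a at -0.13.

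Mitochondrial genes lay lower together by small amounts. All 36 respiratory chain subunits measured lay below vehicle at 12 hours, none by 2-fold, with a median of -0.37, against 53.1% of all genes below vehicle. The 12-hour level was the lowest of the 4 arrays for 28 of the 36, against 25.1% of all genes measured. Ndufs1 of complex I was at 10.31 in vehicle and 9.56 at 12 hours, and Sdha of complex II at 11.41 and 10.87. The list medians on the later arrays were -0.28 and -0.24. The summed linear level of the subunits was 193650 in vehicle, 154840 at 12 hours, 163220 at 2.5 days and 168930 at 4.5 days.

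Genes for the breakdown of branched-chain amino acids, which takes place in mitochondria, were lower along the pathway. A list of 19 measured enzymes, drawn up after the values of some members were seen, had a median of -0.80. All 19 lay below vehicle and 5 were at least 2-fold lower, against 53.1% and 1.42% of all genes measured. Ivd, isovaleryl-CoA dehydrogenase of the leucine branch, was at 9.45 in vehicle, 7.95 at 12 hours, 7.77 at 2.5 days and 7.76 at 4.5 days. Bckdhb, a subunit of the branched-chain keto acid dehydrogenase, was at 9.68, 8.26, 8.19 and 8.08, and its partner Dbt at 9.36, 8.20, 8.25 and 8.12. For these 3 enzymes the 12-hour level was already near the later ones. Oxct1, which activates ketone bodies and was counted among the 5, was at -1.03, and Pcca of the propionate steps at -1.02. The median of the 19 was -1.12 at 2.5 days and -1.20 at 4.5 days, so the enzymes stayed under vehicle on every tamoxifen array. Aass, which starts lysine breakdown, was at 7.84 in vehicle and 6.18 at 12 hours, and was picked out after its value was seen.

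Genes of fatty acid handling differed in both directions. Of 21 fatty acid oxidation and PPAR target genes, 3 were at least 2-fold higher and none lower, against 0.698% and 1.42% of all genes. Their median was 0.15. Pdk4, the kinase that shuts off pyruvate oxidation, was at 8.65 in vehicle, 10.36 at 12 hours, 9.39 at 2.5 days and 8.18 at 4.5 days. Angptl4, a secreted lipoprotein lipase inhibitor, was at 7.05, 8.79, 8.19 and 7.67. Both were highest at 12 hours, by 1.71 and 1.74. The acyl-CoA thioesterase gene Acot1 was at 6.43, 8.06, 8.34 and 7.88, a difference of 1.63. Acadm, an oxidation enzyme itself, was at -0.43. Lpl, the lipoprotein lipase gene, was at 12.70 in vehicle, 11.20 at 12 hours, 10.19 at 2.5 days and 9.76 at 4.5 days, a difference of -1.50.

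Antioxidant genes driven by NRF2 were among the largest increases outside pancreatic genes, but they were a minority of the known targets. Of 21 measured, 5 were at least 2-fold higher and none lower, against 0.698% and 1.42% of all genes measured. Their median was 0.21. Hmox1, the heme oxygenase gene, was at 6.96 in vehicle, 8.87 at 12 hours, 7.41 at 2.5 days and 7.28 at 4.5 days. Gclc, the catalytic subunit of the enzyme that limits glutathione synthesis, was at 10.47, 12.17, 11.21 and 11.35. Srxn1, which restores peroxiredoxins, was at 7.61, 9.13, 8.58 and 8.56. All 3 were highest at 12 hours, by 1.91, 1.70 and 1.52, and Hmox1 lay within 0.45 of vehicle afterwards. The 4 probe sets of Srxn1 ran from 0.50 to 1.56. Sqstm1, the autophagy receptor p62, which also binds the NRF2 inhibitor KEAP1, was at 9.70, 11.12, 9.80 and 9.74. Its 12-hour level stood 1.42 above vehicle while the later ones lay within 0.10 of it, and a second, dim probe set differed by 0.21. Gclm, the modifier subunit of the glutathione enzyme, was at 0.84 and Txnrd1, a thioredoxin reductase gene, at 0.47. Nqo1, often used as a marker of this response, was at 11.14 in vehicle and 10.94 at 12 hours, a difference of -0.20.

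The cystine transporter gene Slc7a11, which serves both NRF2 and ATF4, went another way in time. It was at 3.59 in vehicle, 5.92 at 12 hours, 6.29 at 2.5 days and 7.01 at 4.5 days. Its 2 probe sets differed by 1.02 and 2.33 at 12 hours. Unlike Hmox1 and Sqstm1, it was higher on each later array.

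ATF4 targets were higher by a median of 0.32. Of 26, 3 were at least 2-fold higher and 2 lower, against 0.698% and 1.42% of all genes measured. Atf3, a stress-induced repressor, was at 8.06 in vehicle, 9.54 at 12 hours, 8.63 at 2.5 days and 8.42 at 4.5 days. Chac1, which degrades glutathione, was at 6.55, 7.46, 6.09 and 5.96, and Trib3, which feeds back on ATF4, at 5.54, 6.45, 5.65 and 5.55. Atf3, Chac1 and Trib3 were highest at 12 hours, by 1.48, 0.91 and 0.91. The serine synthesis genes followed the other time course: Psat1 was at 6.47, 7.50, 8.59 and 8.93, and Phgdh at 8.80, 9.61, 9.79 and 9.97. Psat1 differed by 1.03 at 12 hours and Phgdh by 0.80. The 2 lower members were Aldh1l2, the mitochondrial folate dehydrogenase gene, at -1.50, and Cth, the gene of cystathionine gamma-lyase, at -1.32. Asns at -0.05, Ddit3 at 0.15 and Sesn2 at 0.01, well-known members of this response, lay near vehicle.

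Promoter letters of a few stress genes are shown because motifs of these factors stand in them. They are RefSeq sequences of GRCm38.p6, the reference genome, and were not read from these mice. The window searched was the 250 bases before each start site, on both strands. The lists, here and below, hold known members of each response. A higher motif share than in all genes thus describes the list and says nothing about these arrays. Differences between members with and without a match were not tested. Sequences are printed 5′ to 3′ along the gene's own strand, with motifs in capitals. For the amino acid response motif TGATGNAA, 7 of 22 ATF4 targets with a promoter in the RefSeq table had a match, against 3.91% of 27025 genes. The 7 had a median difference of 0.70 and the others one of 0.31. The Slc7a11 stretch lies at chr3:50443627-50443686 on the minus strand and holds 2 matches facing opposite ways, and that of Atf3 lies at chr1:191183410-191183469 on the minus strand.
Slc7a11: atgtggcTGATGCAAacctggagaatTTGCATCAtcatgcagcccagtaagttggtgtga
Atf3: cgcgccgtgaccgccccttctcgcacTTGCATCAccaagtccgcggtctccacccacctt
Chac1 has 1 match, at chr2:119351023-119351082 on the plus strand.
Chac1: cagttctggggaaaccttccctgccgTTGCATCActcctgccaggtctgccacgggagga
For the antioxidant response motif TGACNNNGC, 3 of 17 NRF2 targets had a match, against 11.5% of genes. The 3 were Gclm, Txnrd1 and Ugdh, and the last lay at 0.02. Their median difference was 0.47 and that of the others 0.12. The stretch of Gclm lies at chr3:122245397-122245456 on the plus strand.
Gclm: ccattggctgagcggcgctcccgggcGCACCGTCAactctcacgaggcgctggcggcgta

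Immediate early genes, which are switched on without new protein synthesis, were higher by a median of 0.56. Of 36 measured, 6 were at least 2-fold higher and 2 lower, against 0.698% and 1.42% of all genes measured. The 12-hour level was the highest of the 4 arrays for 20 (55.6%), against 23.3% of all genes measured. Egr1, a zinc finger factor of growth signalling, was at 9.21 in vehicle, 11.17 at 12 hours, 11.10 at 2.5 days and 10.75 at 4.5 days. Egr2 was at 3.89, 5.79, 5.79 and 5.06. Myc was at 7.79, 8.89, 8.88 and 8.96. These 3 were already as high at 12 hours as at 2.5 days. Gadd45b, a stress sensor of MAP kinase signalling, was at 7.29, 8.68, 7.67 and 7.53, and Jun at 9.56, 10.38, 9.63 and 9.30. Both were highest at 12 hours, by 1.39 and 0.82, and the probe sets of Gadd45b ran from 0.58 to 1.71. Atf3 and Fosl1, the latter at 1.09, complete the 6. Fos stood at 11.53 in vehicle and 11.48 at 12 hours. The lower ones were Dusp6, the phosphatase that acts on ERK, at 9.34, 8.04, 8.44 and 8.66, and the nuclear receptor gene Nr4a2, at 9.01, 7.99, 9.03 and 8.82.

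**Figure D3:**
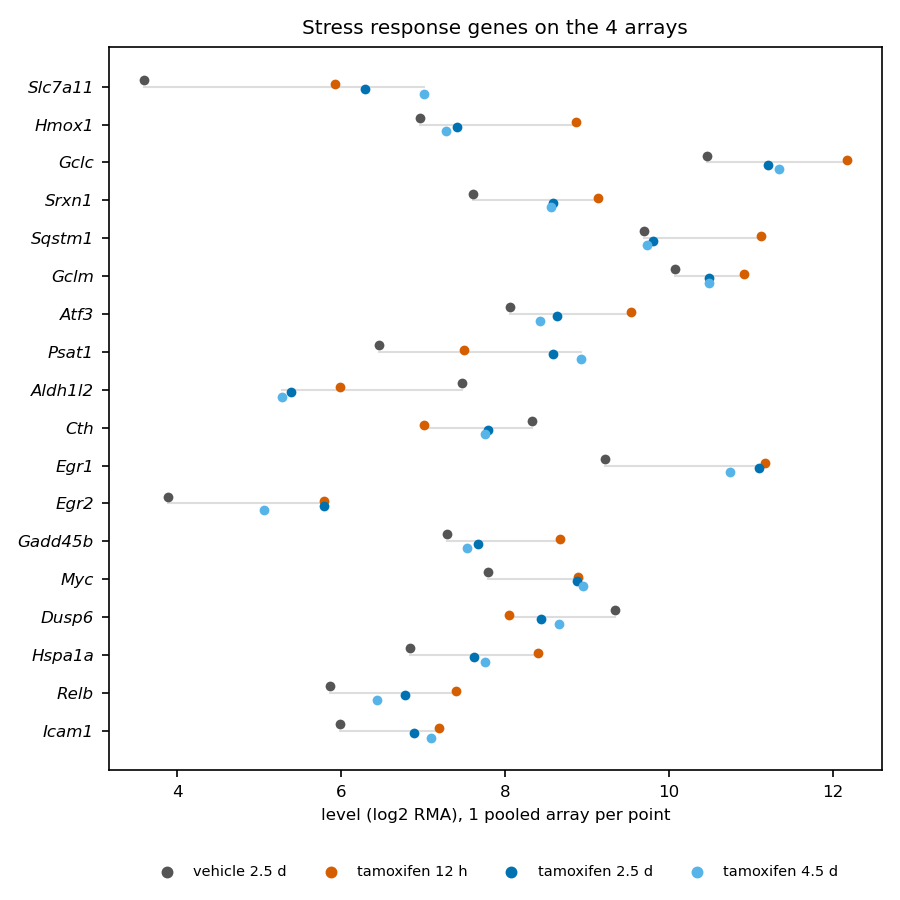
Level (log2 RMA) of 18 stress response genes on the 4 arrays, 1 point per array; the genes were picked after their values were seen. Hmox1, Sqstm1, Gclc, Atf3 and Gadd45b have their highest point at 12 hours (orange), Slc7a11 and Psat1 are higher on each later array, and Aldh1l2, Cth and Dusp6 lie under vehicle.

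Other stress programmes were higher in single members, lower as a list, or near vehicle. Over all genes measured, 0.698% were at least 2-fold higher and 1.42% lower, and 46.5% lay above vehicle and 53.1% below it. Of 17 heat shock genes 2 were at least 2-fold higher, the inducible HSP70 genes Hspa1a, from 6.84 in vehicle to 8.40 at 12 hours, and Hspa1b, from 10.17 to 11.19. These 2 are near-identical neighbours whose probes may not tell them apart, and the list median was 0.16. ER chaperones, the targets of the unfolded protein response, were lower by a median of -0.33, with 19 of 20 below vehicle and none past 2-fold. Syvn1, a ubiquitin ligase of ER-associated degradation, was at -0.82, and Sdf2l1 and Creld2 were at -0.65 and -0.63. The exception in the ER list was Dnajb9 at 0.05, and Hspa5, the chaperone BiP, was at 12.19 in vehicle and 12.18 at 12 hours. The p53 targets had a median of 0.12 with 0 of 21 past 2-fold: Pmaip1 (NOXA) was at 0.78, Cdkn1a (p21) at 0.26 and Mdm2 at 0.21. Among 21 apoptosis regulators, median 0.15, the inhibitor gene Birc3 was past 2-fold, at 1.31. The 20 hypoxia genes had a median of -0.18, with the collagen prolyl hydroxylase gene P4ha2 at -1.38. Of 19 autophagy and lysosome genes, median -0.09, Sqstm1 and the proton pump subunit gene Atp6v0d2, at 1.34, were past 2-fold. The 31 proteasome subunits had a median of 0.14, and 28 lay above vehicle.

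Genes of inflammation were higher in part. Of 24 NF-kB and inflammation genes, 7 were at least 2-fold higher and 1 lower, against 0.698% and 1.42% of all genes. Their median was 0.47, and 0.95 over the expressed members alone. Lcn2, an iron-binding acute phase protein, was at 5.67 in vehicle, 7.74 at 12 hours, 7.63 at 2.5 days and 5.14 at 4.5 days. Saa3, serum amyloid A, was at 7.20, 9.16, 9.32 and 7.92. Both were high on the first 2 tamoxifen arrays, by 2.07 and 1.96 at 12 hours. Il1rn, the interleukin 1 receptor antagonist, was at 3.96, 6.49, 6.84 and 7.04, but its 3 probe sets differed from 0.19 to 2.53. Relb, a subunit of the non-canonical NF-kB pathway, was at 5.87, 7.40, 6.78 and 6.43. The cytokine gene Lif was at 1.28 and the adhesion molecule gene Icam1 at 1.22. Il33, an alarmin, was at 9.60, 8.32, 10.33 and 11.36, so it was under vehicle at 12 hours, by -1.28, and above it later.

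The lists of immune cell markers had medians nearer to vehicle than these genes, with single members past 2-fold. All 12 macrophage genes were above the array median on both arrays, with a median difference of 0.23 and summed linear levels of 4235 in vehicle and 4581 at 12 hours; Cd14, at 1.29, was past 2-fold. Of 8 neutrophil genes, 2 reached the array median in vehicle and 3 did so at 12 hours, with sums of 208 and 255. Their median was 0.19, with S100a8 at 1.36 and S100a9 at -0.15. Mpo, Elane and Camp, which neutrophil granules hold, were under or near the array median on both arrays. T and NK cell genes had a median of 0.12, B and plasma cell genes -0.16 and mast cell genes 0.16. The mast cell protease gene Mcpt1 was past 2-fold, at 1.48, with levels of 3.38 in vehicle and 4.86 at 12 hours, both under the array median. The part of these cells in the inflammation genes was not tested.

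For the kappa B motif GGGNNTTTCC, 9 of 20 inflammation genes had a match in the 250 bases before the start, against 1.65% of genes. The 9 had a median difference of 0.52 and the others one of 0.39. Nfkbia, the NF-kB inhibitor, was at 11.73 in vehicle, 12.45 at 12 hours, 11.93 at 2.5 days and 11.77 at 4.5 days, and its stretch lies at chr12:55492648-55492701 on the minus strand. Il1rn has its match at chr2:24345295-24345354 on the plus strand.
Nfkbia: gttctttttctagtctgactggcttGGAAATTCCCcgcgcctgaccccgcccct
Il1rn: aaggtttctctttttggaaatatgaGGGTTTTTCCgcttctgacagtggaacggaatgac

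Interferon response genes had a median of 0.54. Of 26, 4 were at least 2-fold higher and 24 lay above vehicle, against 0.698% and 46.5% of all genes measured. Read from the probe set of median difference, the list median was 0.33. Cxcl10, a chemokine of T cells, was at 5.14 in vehicle, 6.73 at 12 hours, 6.29 at 2.5 days and 6.12 at 4.5 days. Ifit1, which binds foreign RNA, was at 6.07, 7.29, 8.14 and 8.43. Rtp4 was at 7.64, 8.78, 9.62 and 9.54. Cxcl10 was highest at 12 hours, by 1.59, whereas Ifit1 and Rtp4 were higher later. The 12-hour level was the highest of 4 for 2 members of the list (7.69%), against 23.3% of all genes measured. For the interferon response motif GAAANNGAAA, 9 of 19 members had a match, against 3.46% of genes. The 9 had a median difference of 0.57 and the others one of 0.52. Ifit1 has 2 matches close together at chr19:34640779-34640838 on the plus strand.
Ifit1: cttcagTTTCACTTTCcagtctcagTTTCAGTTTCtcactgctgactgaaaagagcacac

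The cell cycle was divided at 12 hours. Genes of mitosis were lower by a median of -0.47, with none past 2-fold. Of 54, 52 lay below vehicle, against 53.1% of all genes measured. Genes of DNA replication were higher by a median of 0.26, with 35 of 40 above vehicle, against 46.5% of all genes measured. The 12-hour level was the lowest of the 4 arrays for 51 of the 54 mitosis genes and for 4 of the 40 replication genes, against 25.1% of all genes. At 2.5 days both lists were above vehicle, at 1.25 and 1.16, and at 4.5 days at 1.27 and 1.06.

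Bub1, a kinase of the spindle checkpoint, was at 6.45 in vehicle, 5.47 at 12 hours, 8.16 at 2.5 days and 8.35 at 4.5 days. The kinesin gene Kif2c was at 6.75, 5.79, 7.98 and 7.91, and Kif22 at 9.21, 8.26, 10.18 and 10.10. Each also had a dimmer probe set, just above the array median in vehicle, that lay near vehicle at 12 hours, at -0.07 for Kif2c and -0.10 for Kif22. Aurka, a kinase of the spindle poles, was at 6.82, 5.92, 8.14 and 8.13. Each was lowest at 12 hours and above vehicle later, and their 12-hour differences ran from -0.98 to -0.90. Mki67, the proliferation marker, was at 9.62, 8.91, 10.81 and 10.85, a difference of -0.70. Top2a at -0.31 and Cdk1 at -0.20, which are also needed before mitosis, differed less.

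Mcm4, a subunit of the replicative helicase, was at 8.07 in vehicle, 8.97 at 12 hours, 9.80 at 2.5 days and 9.83 at 4.5 days. Cdt1, which loads that helicase, was at 8.25, 9.01, 9.80 and 9.58. Uhrf1, which maintains DNA methylation, was at 7.26, 7.97, 9.12 and 9.08. All 3 were part of the way to their later levels at 12 hours, at 0.90, 0.77 and 0.71. The helicase genes Mcm6, Mcm3 and Mcm5 followed at 0.75, 0.71 and 0.68. Dscc1, at 1.47, was past 2-fold but under the array median on both arrays, at 3.54 and 5.01.

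Regulators of entry into the cycle differed little as a list, with a median of 0.14 over 32 genes and Myc the 1 member past 2-fold. The kinase inhibitor gene Cdkn1c (p57) was at 8.52 in vehicle, 7.53 at 12 hours, 6.78 at 2.5 days and 6.61 at 4.5 days. Its difference of -0.99 was just within 2-fold. Mycl was at 0.82, the cyclin gene Ccne2 at 0.58 and Cdkn2c at -0.46.

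Promoter letters are shown for the genes that went apart. For the E2F motif TTTNGCGC, 5 of 32 replication genes had a match, against 1.31% of genes, and these 5 had a median of 0.68 against 0.28 for the others. Mcm5 has 2 overlapping matches on opposite strands, at chr8:75109334-75109393 on the plus strand, and Uhrf1 has 1 at chr17:56304102-56304161 on the plus strand. For the CHR motif TTTGAA, a short motif found in 18.3% of promoters, 15 of 46 mitosis genes had a match. These 15 had a median of -0.46 against -0.55 for the others. Kif2c has its match at chr4:117178843-117178902 on the minus strand.
Mcm5: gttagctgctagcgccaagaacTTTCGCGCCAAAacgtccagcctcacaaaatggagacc
Uhrf1: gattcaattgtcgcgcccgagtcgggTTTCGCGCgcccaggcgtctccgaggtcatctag
Kif2c: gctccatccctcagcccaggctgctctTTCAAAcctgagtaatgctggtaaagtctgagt

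Ribosome biogenesis was higher throughout at 12 hours. All 36 members lay above vehicle, against 46.5% of all genes measured, with a median of 0.44. Nop58, a core protein of the small nucleolar ribonucleoproteins, was the 1 past 2-fold. It was at 7.84 in vehicle, 8.85 at 12 hours, 9.23 at 2.5 days and 9.37 at 4.5 days. Ncl, nucleolin, was at 10.51, 11.14, 11.95 and 12.10. Both were part of the way to the later levels, and the list medians there were 0.89 and 0.95. The tRNA synthetases differed less, with a median of 0.07 over 19. Cholesterol synthesis genes were under vehicle by a median of -0.14 over 18, with Dhcr7 at -0.74. Of the 18, 15 had their lowest level of the series at 12 hours, against 25.1% of all genes measured.

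**Figure D4:**
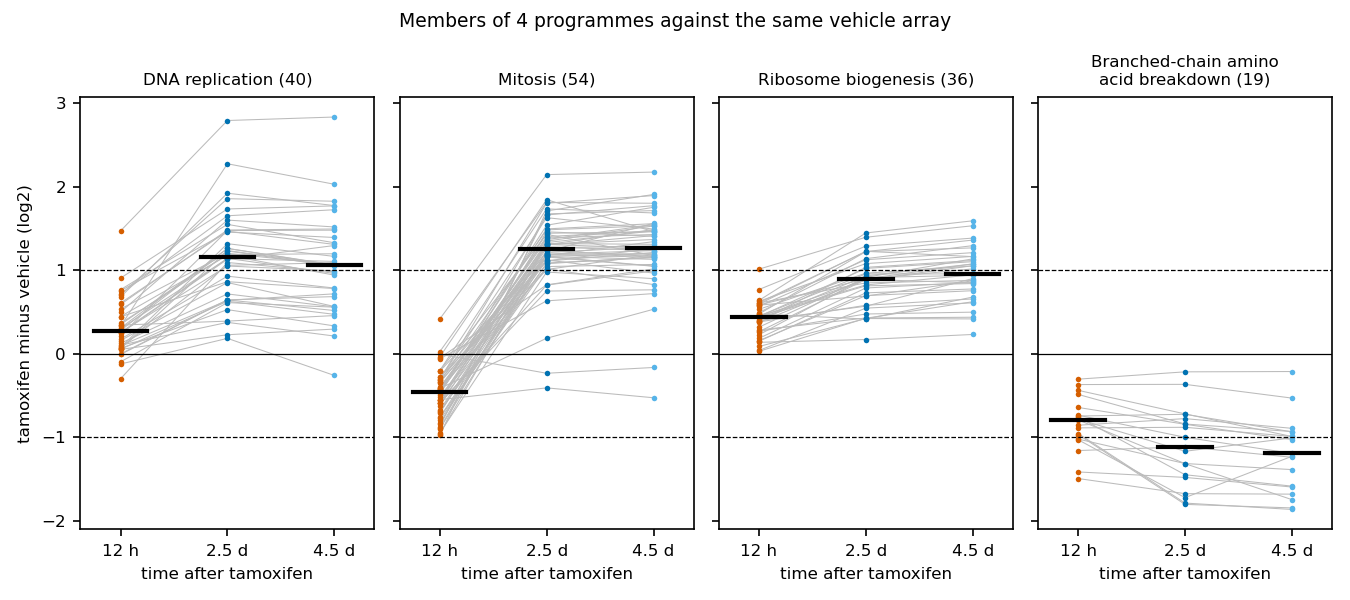
Difference from the shared vehicle array (log2) of each member of 4 programmes on the 12-hour, 2.5-day and 4.5-day arrays; grey lines join 1 gene, black bars are list medians and dashed lines mark 2-fold. At 12 hours replication lies at a median of 0.26 and mitosis at -0.47, ribosome biogenesis has all 36 members above 0, and branched-chain amino acid breakdown has all 19 below 0. The branched-chain list was drawn up after the values of some members were seen.

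Most markers of the other gastric epithelial cell types stayed within 2-fold at 12 hours, as did 17807 of the 18193 genes measured. The chief cell list had a median of -0.16 over 11 genes, and the zymogen genes Pgc and Cblif, the latter for intrinsic factor, were at -0.17 and -0.21. Bhlha15 (MIST1), the factor that scales up the secretory apparatus of zymogenic cells, was at 9.15 in vehicle, 7.19 at 12 hours, 7.39 at 2.5 days and 7.20 at 4.5 days. It was thus as low at 12 hours as later, by -1.95, on its brighter probe set, while the dim one gave 0.10. Pgc was at 14.28, 14.12, 13.01 and 11.84, so it was near vehicle on the 12-hour array, where Bhlha15 was low. Its first 2 levels were above 14, near the top of the scale. A link between Pgc and Bhlha15 was not tested. Bhlha15 is also known from pancreatic acinar cells, whose genes were high on that array.

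Of 17 mucous neck and metaplasia genes, 3 were at least 2-fold higher and 1 lower, against 0.698% and 1.42% of all genes. Their median was 0.09. Beside Slc7a11 the higher ones were Mmp12, macrophage elastase, at 5.01 in vehicle and 6.97 at 12 hours, and the chitinase-like gene Chil4, at 7.12 and 8.73. The chloride channel gene Cftr was at 6.52, 5.38, 7.67 and 8.90, under vehicle at 12 hours and above it later. Surface mucous genes had a median of 0.01 over 12, with Muc1 at 0.21 the highest, endocrine genes -0.07 over 16 with Ghrl at -0.11, and tuft cell genes 0.06 over 11. Of the Wnt and stem cell genes, median -0.24 over 17, Tnfrsf19 was at -1.11, Sp5 at -0.91 and Lrig1 at -0.67. Of 12 EGF family genes, median 0.04, Egf was past 2-fold at 7.35, 5.82, 4.68 and 4.37, a difference of -1.53.

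Smooth muscle genes had a median of -0.36 and summed linear levels of 46250 and 35945. Of 12, 11 lay below vehicle, against 53.1% of all genes measured. Fibroblast genes were at -0.25, with Lum at -1.05, endothelium at -0.05, erythroid genes at -0.03, adipocyte genes at 0.18 and islet genes at 0.00. The intestine list, median -0.19 over 10, held Apoa1, at 13.50 in vehicle and 12.40 at 12 hours, and Apoa4, at 9.51 and 7.59. The liver list, median -0.06 over 9, held the transthyretin gene Ttr, at 12.53 and 10.98, and Mug1, at 8.91 and 7.86. Alb, the defining liver gene, was under the array median on both arrays, at 4.92 and 5.00.

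**Figure D5:**
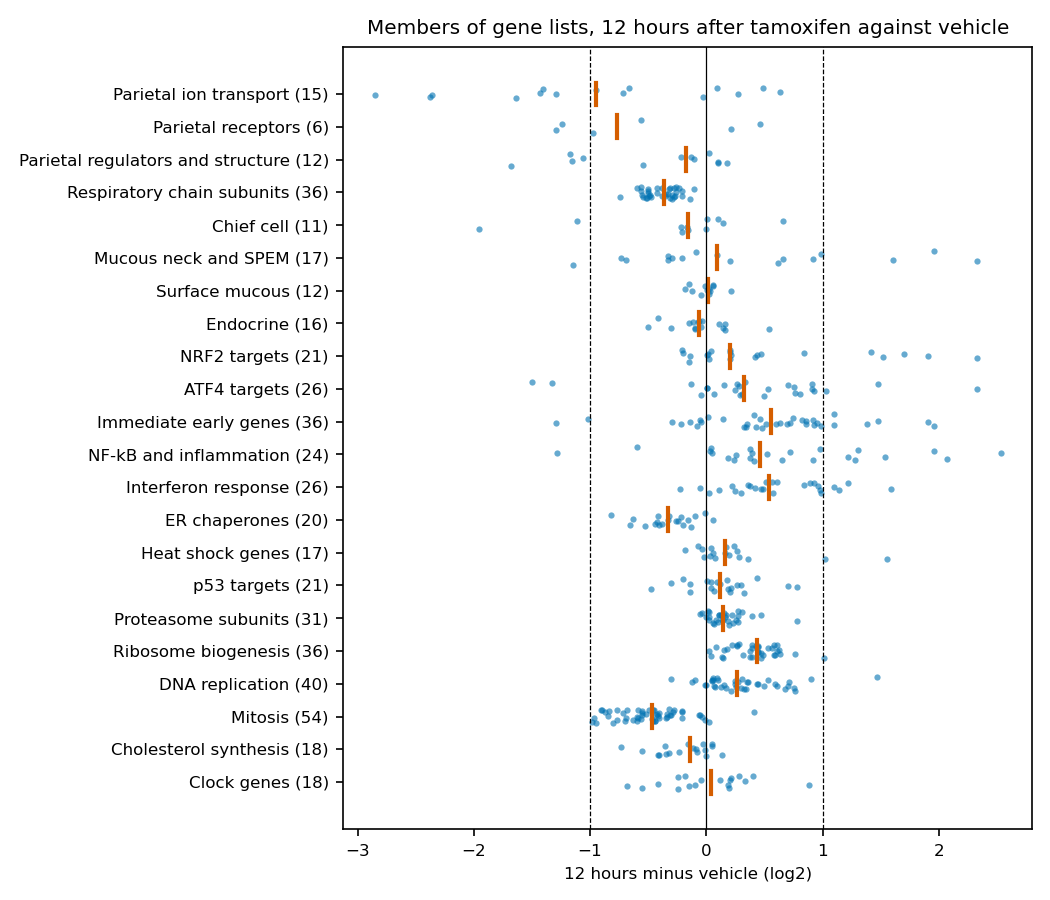
Difference between 12 hours and vehicle (log2) of each measured member of 22 gene lists; the number of members stands in parentheses, orange bars are list medians, dashed lines mark 2-fold and the vertical scatter has no meaning. The parietal ion transport median is -0.95, the immediate early median 0.56, and respiratory chain, ribosome biogenesis and mitosis genes form narrow clouds on 1 side of 0.

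Hormone and drug genes were compared as well, since tamoxifen is a receptor ligand and a drug, and so were clock genes. Of 14 estrogen receptor and target genes, median 0.00, Gper1, the membrane estrogen receptor gene, was at 8.37 in vehicle, 5.81 at 12 hours, 5.56 at 2.5 days and 4.93 at 4.5 days. Both its probe sets were lower, at -1.79 and -2.56. Esr1, the classical receptor, was under the array median at 4.81 and 4.61. Among 28 cytochrome P450 and phase II genes, median -0.14, Cyp2b10 was at 6.69, 8.23, 7.60 and 6.86 and Cyp3a13 at 8.82, 9.85, 9.49 and 9.08. Both were highest at 12 hours and nearest to vehicle at 4.5 days, while Cyp2f2 was at -1.42. Glucocorticoid response genes had a median of 0.53 over 14, with Cebpd at 1.40, Fkbp5 at 0.99 and Klf15 at -1.19. The metal response list, median 0.18 over 5, had Mt4 at -4.98 as its 1 member past 2-fold, with Mt1 at 0.56 and Mt2 at 0.33. The 18 clock genes had a median of 0.04, with 9 above vehicle and 9 below it, so the median hides opposite differences. None was past 2-fold, with Bhlhe40 at 0.89, Dbp at -0.68 and Per3 at -0.55.

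The largest increase among the 12123 genes, 7.04, was that of 2210010C04Rik, a clone without a gene name that is counted here but is known from pancreas. Among genes with a name, Serpina3n, an acute phase protease inhibitor, was highest, at 7.52 in vehicle, 10.30 at 12 hours, 9.79 at 2.5 days and 9.07 at 4.5 days. Slfn4, a Schlafen family gene, was at 5.91, 8.64, 7.72 and 7.80. Both were highest at 12 hours, by 2.79 and 2.73. Next came Serpina7, the thyroxine-binding globulin gene, at 2.60, Il1rn at 2.53, the metalloprotease gene Adam8 at 2.42, Slc7a11 at 2.33 and Scara3, a scavenger receptor family gene, at 2.32. Sox4, a transcription factor of progenitor cells, was at 9.78, 11.50, 10.21 and 10.28, a difference of 1.72. The claudin gene Cldn4 was at 1.83, Tnfrsf12a, the TWEAK receptor gene, at 1.82, Tpbg at 1.77 and the metalloprotease inhibitor gene Timp1 at 1.75.

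The largest decrease, -6.00, was that of Gm94, a predicted gene without a name. Among the 20 largest decreases of named genes, Mt4, Them5, Calm4, Kprp and Gjb2, which are known from cornified or squamous epithelium but were not among the genes set aside, were low at 12 hours and closer to vehicle later. Mt4 was at 9.77 in vehicle, 4.79 at 12 hours, 9.33 at 2.5 days and 9.78 at 4.5 days, and thus low on the array where the squamous list was lowest. Others were as low on the later arrays. Hecw2, a ubiquitin ligase gene, was at 8.44, 5.36, 5.41 and 4.90, the fucosyltransferase gene Fut9 at 9.19, 6.41, 6.13 and 6.73, and the BMP and Wnt antagonist gene Sostdc1 at 8.25, 5.73, 5.89 and 5.64. For these 3 the 12-hour differences, -3.08, -2.78 and -2.53, were close to those at 2.5 days, -3.04, -3.06 and -2.36. Gpr155 was at 9.69, 7.21, 6.50 and 6.26, and Pld6, a mitochondrial outer membrane enzyme, at 6.84, 4.30, 4.52 and 4.13. Arg1, arginase, was at 6.44, 4.06, 6.75 and 5.57, lowest at 12 hours, above vehicle at 2.5 days and below it at 4.5 days. With 15 more genes of cornified epithelium and pancreas left out, chosen after the data were seen, 94 genes were higher and 170 lower.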

How the data were processed

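Total RNA of gastric corpus epithelium, pooled from 3 mice per array, was measured on 4 Affymetrix arrays, 1 per group. The deposited values are log2 RMA expression of 45101 probe sets, which the authors made with Partek, per the submitters' processing notes. Software versions were not given in sources used here, and the log base was inferred from the values. RMA equalises array distributions by quantiles, so a shift shared by most genes is not visible, and it compresses dim and very bright genes.

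Of the probe sets, 64 controls were left out, 34945 had 1 platform symbol, 932 several and 9211 none. Symbols gave 18193 genes, 9010 with several probe sets, each read from the probe set with the highest mean. Differences were taken with Python 3.11.15, pandas 2.3.3 and numpy 2.4.6. The counting steps were checked on simulated data with large planted changes, which does not gauge how reliable the counts are. With 1 array per group no test was possible, and genes past 2-fold or at it were counted. In 50 gene lists, 990 of 1063 entries were measured, 27 by an older symbol, and 73 are not analysed here. Members and lists were chosen with earlier results of these data known, and the branched-chain, acute phase and ERK feedback lists after values were seen. Named genes were the 20 largest differences per direction, leaving out predicted genes, clones and unnamed loci, up to 6 members per list with the largest difference above the array median, all parietal ion transport genes and the corpus marker genes; other members named, as well-known genes or contrasts, were chosen after their values were seen. No named gene had probe sets above the median 2-fold apart in both directions. Alternatives were the probe set, centring, dim-gene filter, genes left out and fold threshold.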

Additional observations from a re-analysis of the deposited data

Results flagged for a closer look

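The mitosis list lay under vehicle at 12 hours, with a median of -0.47, and above it at 2.5 and 4.5 days, at 1.25 and 1.27. The pancreatic acinar list went the other way, with a median of 2.30 at 12 hours and -0.28 and -0.34 later. These comparisons share 1 vehicle array, and the differences between times were not tested.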

How the results depend on the processing

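At 1.5-fold, 385 genes were higher and 630 lower, and at 3-fold 29 and 55, against 95 and 184 at 2-fold. A dim-gene filter set to the 75th percentile left 55 higher. The other 47 alternatives of these counts and of the 6 main list medians kept the direction, with counts within 1.5 times and medians within the SD of the poly-A controls. The parietal ion transport median ran from -0.95 to -0.91, NRF2 from 0.21 to 0.24, ATF4 from 0.28 to 0.36, immediate early genes from 0.41 to 0.59, replication from 0.20 to 0.30 and mitosis from -0.47 to -0.38. Of the other lists' medians, 206 alternatives stayed within that SD and 13 moved past it; the adipocyte median became -0.13 with the probe set of median difference, the erythroid median 0.32 without probe sets that may be shared between transcripts, and the liver median -1.29 over expressed members. The number of arrays, 1 per group, limits every value. Genes near the array median are compressed and genes above 14 have little room. No paired analysis was possible because each group was 1 array. No replicate could be left out.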

Other observations

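A list of 20 acute phase genes, drawn up after Serpina3n, Lcn2 and Saa3 were seen to lead, had a median of 0.60 at 12 hours. Of the 20, 9 were at least 2-fold higher and 1 lower, against 0.698% and 1.42% of all genes measured. The 9 include these leading genes and also Il1rn, Timp1 and Cebpd, described above, so the count partly follows from how the list was made. Cp, the ceruloplasmin gene, was at 6.79 in vehicle and 8.15 at 12 hours, and Osmr, the oncostatin M receptor gene, at 7.47 and 8.71. Hpx, hemopexin, was lower at -1.11, and the fibrinogen genes Fga, Fgb and Fgg were under the array median on both arrays. Of 13 ERK feedback genes, median 0.01, Dusp4 was at 1.23 and Dusp6 at -1.29, so these 2 phosphatase genes differed in opposite directions, while the Spry genes Spry1, Spry2 and Spry4 were at 0.14, -0.01 and 0.07.

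Fes, Furin and Blm, neighbours among the expressed genes on chromosome 7 of GRCm38.p6, were all lower at 12 hours, at -1.16, -1.82 and -2.26. Furin, a proprotein convertase, was at 10.85 in vehicle, 9.02 at 12 hours, 9.14 at 2.5 days and 8.26 at 4.5 days. Nnt, which carries a known deletion in the C57BL/6J strain, was at 9.06, 8.004, 7.80 and 7.76. As no strain is tied to an array, strain and tamoxifen cannot be told apart for it. Tfrc, the transferrin receptor gene, was at -1.60 on its brightest probe set and at -0.02 on its other probe set above the array median.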
